A study of Mus musculus with 12 samples.

Results

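The genes of the synaptic vesicle and of its release machinery were followed in the organ of Corti (the part of the cochlea that holds the hair cells) of mice without one or both clarins. Clarin-1 and clarin-2 are related membrane proteins of the hair cells. The 10 genes were picked by symbol for their role from the 55348 genes counted, with no threshold on their values but with earlier results of these data known. They are Sv2a, Sv2b, Sv2c, Syt1, Syt2, Snap25, Vamp1, Syn1, Syn2 and Cplx1, and all of them passed the filter on low counts that left 19052 genes for testing. RNA was sequenced at P21 (postnatal day 21) in 4 genotypes with 3 libraries each, namely wild-type, Clrn1-/-, Clrn2-/- and Clrn1-/-Clrn2-/-. Clrn1-/- mice lack exon 4 of Clrn1 in every cell, through a Cre recombinase under the PGK promoter. Clrn2-/- mice carry the clarinet allele, a nonsense mutation, and the double mutants were bred from both lines. Wild-type mice were bred apart from the mutants rather than as littermates, so that breeding and genotype cannot be told apart. The stria vascularis and the modiolus had been removed. Per the paper, each genotype was drawn from more than one litter, but which animals went into which library is not given in the sources used here, so that p-values measure the spread between these libraries, which may be partly technical.

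Vesicles filled with neurotransmitter dock at the presynaptic membrane and are made ready to fuse by SNARE proteins, a vesicle SNARE of the VAMP family pairing with SNAP-25 and a syntaxin on the membrane. Calcium entering the terminal binds a synaptotagmin on the vesicle, which sets off fusion, while complexin holds or assists the SNARE complex and synapsins tether a reserve of vesicles. In the cochlea these proteins serve neurons. The inner hair cell has a ribbon synapse that relies on otoferlin as its calcium sensor and on the glutamate transporter encoded by Slc17a8. Which cells the RNA of each gene came from is not resolved in bulk samples. Fibres of spiral ganglion neurons and of efferent neurons of the brainstem run in the organ of Corti, while the ganglion cell bodies lie in the modiolus.

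Promoter sequences are shown for the Sv2 family, of which Sv2b and Sv2c gave the widest differences between genotypes and Sv2a is the most abundant, and for Syn1, whose promoter carried motifs found in no other of these genes. They are from RefSeq on GRCm38.p6 and run from 250 bases before to 50 bases after the annotated start, 5′ to 3′ on the strand of the gene. Of the 10 genes, 9 had an entry, and Snap25 had none. Sv2a lies at chr3:96180977-96181276 on the plus strand, Sv2b at chr7:75309213-75309512, Sv2c at chr13:96132528-96132827 and Syn1 at chrX:20920869-20921168, the last 3 on the minus strand. For Sv2b, the upstream start is shown, which is also where the Gencode gene begins. Capitals mark GGGCGG (a GC box), TATAAA, TGACGTCA (the cyclic AMP response element) and TCAGCACC (the first letters of the element bound by the repressor REST) on either strand.
Sv2a: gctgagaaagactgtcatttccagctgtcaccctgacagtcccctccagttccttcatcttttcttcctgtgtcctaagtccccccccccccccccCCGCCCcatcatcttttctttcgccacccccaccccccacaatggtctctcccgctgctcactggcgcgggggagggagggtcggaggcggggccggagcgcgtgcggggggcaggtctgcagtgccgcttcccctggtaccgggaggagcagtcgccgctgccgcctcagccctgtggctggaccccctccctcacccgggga
Sv2b: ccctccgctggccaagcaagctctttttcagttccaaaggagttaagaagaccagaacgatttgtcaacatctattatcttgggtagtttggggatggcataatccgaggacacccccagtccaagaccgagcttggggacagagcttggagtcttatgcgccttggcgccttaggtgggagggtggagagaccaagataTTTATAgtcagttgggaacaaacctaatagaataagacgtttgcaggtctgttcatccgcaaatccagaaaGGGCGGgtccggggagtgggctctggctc
Sv2c: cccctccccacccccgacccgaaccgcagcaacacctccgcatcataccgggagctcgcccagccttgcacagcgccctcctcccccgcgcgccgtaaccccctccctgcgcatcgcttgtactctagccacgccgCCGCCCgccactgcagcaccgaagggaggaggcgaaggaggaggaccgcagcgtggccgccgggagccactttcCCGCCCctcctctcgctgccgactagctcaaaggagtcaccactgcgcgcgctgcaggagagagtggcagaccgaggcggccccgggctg
Syn1: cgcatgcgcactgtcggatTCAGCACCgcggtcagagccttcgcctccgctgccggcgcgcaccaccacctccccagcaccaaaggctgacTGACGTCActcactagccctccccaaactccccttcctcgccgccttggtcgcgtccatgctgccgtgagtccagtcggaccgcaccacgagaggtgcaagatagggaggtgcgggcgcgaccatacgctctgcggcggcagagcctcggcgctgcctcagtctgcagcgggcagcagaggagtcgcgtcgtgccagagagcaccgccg
GGGCGG, or CCGCCC on the other strand, stood in the promoters of 8 of the 9 genes, all but Syn1, and in 35.7% of the 32851 promoters of this length. A gene counted where any of its promoters held the motif, and Sv2b, Syt1, Syt2 and Syn2 had several. The shares of all promoters count each promoter singly, so that the numbers of genes and these shares are not in the same unit. TATAAA stood in that of Sv2b alone among the 9 and in 13.6% of all promoters. TGACGTCA and TCAGCACC stood in that of Syn1 alone, and in 1.79% and 1.65% of all promoters. The motifs were searched after the values of the genes were known, they do not overlap one another, and a match describes letters, not a site of binding.

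Counts on genes ran from 30008679 to 41049302 per library. Levels are given as CPM (counts of a gene relative to the library size, scaled by TMM, a normalization on the bulk of the genes), as mean ± SD of 3 libraries. In every library without functional Clrn1, Clrn1 lay at 1.77 to 3.04 CPM, against 23.8 to 31.5 CPM in the others. Clrn2 lay at 1.89 to 3.24 CPM in wild-type, 0.921 to 1.38 CPM in the libraries with the clarinet allele, and 0.854 to 1.04 CPM in Clrn1-/- mice, where its sequence is intact. A gene is said to have risen or fallen where edgeR's quasi-likelihood test gave an adjusted p (Benjamini-Hochberg, over all 19052 genes) of at most 0.05. It is called over- or under-expressed where the change was also at least 1.5-fold, the thresholds used by the study with another test. Errors of log2 fold changes are standard errors.

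In the double mutants 9 of the 10 genes fell relative to wild-type, and none rose. Sv2c and Snap25 were under-expressed. Among all genes tested in this comparison, 17.9% fell and 19.1% rose, while 4.02% were under-expressed and 5.88% over-expressed. For the same 9 genes every double-mutant library lay below every wild-type library, and for none above, against 23.2% and 25% of all genes. The median log2 fold change of the 10 genes was -0.52, against 0.0010 over all genes tested. In Clrn1-/- mice 2 genes rose (Sv2b and Sv2c) and 3 fell (Sv2a, Snap25 and Cplx1), where 13.6% and 13.3% of all genes did so. Sv2b was over-expressed there and no gene under-expressed, against 3.52% and 3.7% of all genes. Libraries did not overlap with wild-type for the same 5 genes, 2 above and 3 below, against 20.5% and 19.8% of all genes. In Clrn2-/- mice 4 genes fell (Sv2a, Sv2c, Snap25 and Cplx1) and none rose, where 7.07% and 7.14% of all genes did so. None reached a 1.5-fold change, against 1.42% of all genes under-expressed and 1.24% over-expressed. The libraries of these 4 genes lay below wild-type without overlap, and for none above, against 14.4% and 14.6% of all genes. The 3 comparisons share the wild-type libraries and are therefore not independent of each other.

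**Figure D1:**
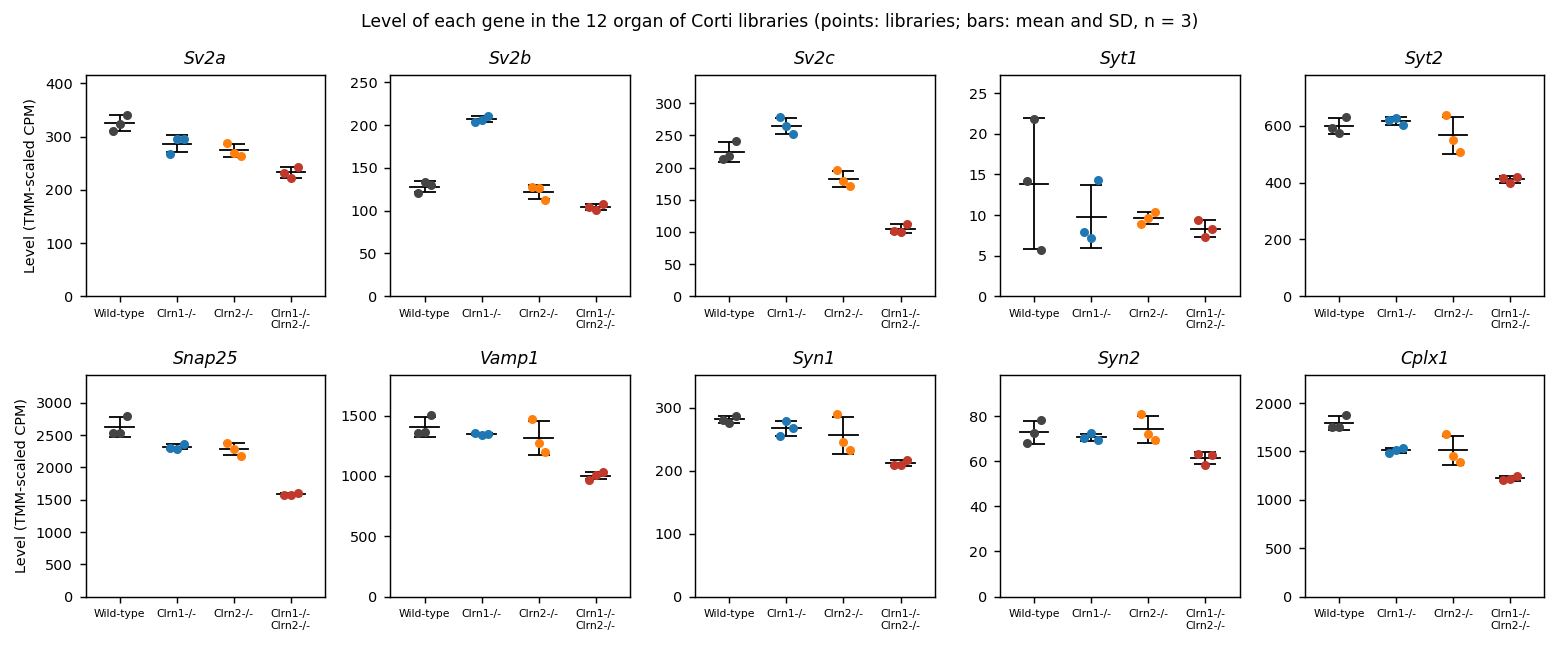
Level of each of the 10 genes (vertical axis, TMM-scaled CPM from 0) in the 12 libraries by genotype, with points for libraries and bars for the mean and SD of 3. For all genes but Syt1, the 3 libraries of the double mutants lie below those of the other 3 genotypes.

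The glycoproteins SV2A, SV2B and SV2C of the vesicle membrane act on calcium-dependent release and on the handling of synaptotagmin. Sv2c (chr13:95954594-96132577, minus strand) gave the widest differences among the 10 genes. Its level was 213, 218 and 242 CPM in the wild-type libraries and 278, 264 and 253 in Clrn1-/- mice. It was 197, 179 and 172 CPM in Clrn2-/- mice, against 102, 99.7 and 113 in the double mutants. No library of one genotype overlapped with those of another, and the order from high to low was Clrn1-/-, wild-type, Clrn2-/- and double mutants. Relative to wild-type, Sv2c rose by 0.24 ± 0.062 on the log2 scale in Clrn1-/- mice (edgeR adjusted p = 0.00959). It fell by 0.30 ± 0.063 in Clrn2-/- mice (edgeR adjusted p = 0.00443) and by 1.10 ± 0.064 in the double mutants (edgeR adjusted p = 3.95e-09), where it was at 0.468 times the wild-type level. Loss of Clrn1 thus went with a higher level where Clrn2 was intact and with a lower one where it was mutated. The difference between the double mutants and Clrn2-/- mice was -0.80 ± 0.064 (edgeR adjusted p = 5.88e-07).

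Sv2b (chr7:75114894-75309262, minus strand) stood at 121, 133 and 130 CPM in wild-type and at 204, 206 and 210 in Clrn1-/- mice. It stood at 128, 126 and 113 CPM in Clrn2-/- mice, and at 105, 101 and 108 in the double mutants. The Clrn1-/- libraries were far above all others, the wild-type and Clrn2-/- libraries overlapped, and the double mutants were lowest. Sv2b rose by 0.69 ± 0.051 on the log2 scale in Clrn1-/- mice, or 1.61-fold (edgeR adjusted p = 1.10e-07). In Clrn2-/- mice its difference from wild-type was -0.07 (95% interval -0.17 to 0.04). In the double mutants it fell by 0.30 ± 0.051 (edgeR adjusted p = 2.65e-04), and its level was 0.505 times that of Clrn1-/- mice. The rise in Clrn1-/- mice was therefore not seen in mice that lacked both clarins.

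The most abundant of the family, Sv2a (chr3:96181151-96195521, plus strand), stood at 311, 324 and 341 CPM in wild-type and 268, 295 and 296 in Clrn1-/- mice. In Clrn2-/- mice it stood at 288, 270 and 264 CPM, and in the double mutants at 232, 223 and 243. The libraries of the single mutants overlapped with each other and lay between those of wild-type and of the double mutants. Sv2a fell by 0.18 ± 0.053 in Clrn1-/- mice (edgeR adjusted p = 0.0183), by 0.25 ± 0.053 in Clrn2-/- mice (edgeR adjusted p = 0.00531) and by 0.48 ± 0.053 in the double mutants (edgeR adjusted p = 3.24e-06). The fall in Clrn1-/- mice did not pass the test without Clrn1-/- replicate 1 (-0.13, edgeR adjusted p = 0.106) or without wild-type replicate 3 (-0.15, edgeR adjusted p = 0.0641).

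These changes altered the make-up of the family, measured as FPKM, CPM per kilobase of merged exons. Sv2a held 64.6% ± 0.179 of the summed Sv2 FPKM in wild-type, Sv2c 21.3% ± 0.528 and Sv2b 14.1% ± 0.537 (SD, n = 3). The share of Sv2b in Clrn1-/- mice was 21.7% ± 0.366 and that of Sv2a 54.3% ± 1.85. The share of Sv2c was 24.0% ± 1.66 in Clrn1-/- mice, 20.3% ± 0.410 in Clrn2-/- mice and 14.7% ± 0.372 in the double mutants, in whom Sv2a reached 68.3% ± 0.176. Sv2b thus passed Sv2c only in the double mutants, with 17.0% ± 0.234.

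**Figure D2:**
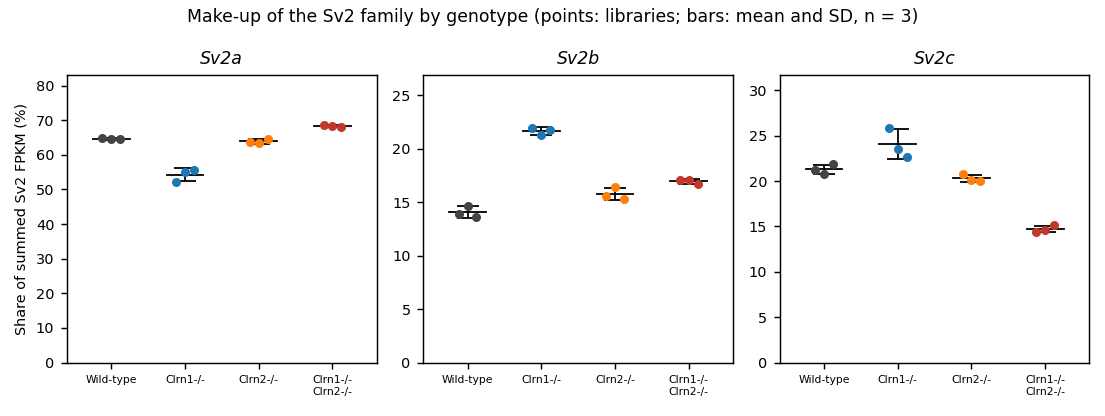
Share of Sv2a, Sv2b and Sv2c in their summed FPKM (vertical axes, percent from 0, scaled separately) by genotype, with points for libraries and bars for the mean and SD of 3. Sv2b is at 21.3 to 22.0% in Clrn1-/- mice, above all other libraries, and Sv2c at 14.4 to 15.1% in the double mutants, below all others.

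Synaptotagmins 1 and 2 are fast calcium sensors of vesicle fusion. Syt2 (chr1:134646677-134762593, plus strand) stood at 591, 576 and 630 CPM in wild-type and 619, 628 and 602 in Clrn1-/- mice. It stood at 638, 551 and 508 CPM in Clrn2-/- mice and at 415, 397 and 420 in the double mutants. Wild-type and both single mutants overlapped, and the double mutants were apart from all of them. In the single mutants the differences from wild-type were 0.04 (95% interval -0.099 to 0.18) and -0.08 (95% interval -0.22 to 0.059). Syt2 fell by 0.54 ± 0.066 on the log2 scale in the double mutants (edgeR adjusted p = 9.32e-06). Against Clrn1-/- mice the fall of 0.58 ± 0.066 was just short of 1.5-fold.

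Syt1 (chr10:108497650-109010982, minus strand) made up 2.10% ± 1.27 of the FPKM of the pair in wild-type and was the only one of the 10 genes to change in no comparison. It stood at 14.1, 21.8 and 5.67 CPM in wild-type and 7.97, 7.17 and 14.3 in Clrn1-/- mice. It stood at 8.85, 9.61 and 10.3 CPM in Clrn2-/- mice and at 9.38, 7.31 and 8.33 in the double mutants. Wild-type held both its highest and its lowest library, so that all genotypes overlapped with wild-type. The difference in the double mutants was -0.73 (95% interval -1.45 to -0.013, edgeR adjusted p = 0.104). Without wild-type replicate 3, Syt1 fell in all mutants, with log2 differences of -0.87 for Clrn1-/- (edgeR adjusted p = 0.00806), -0.91 for Clrn2-/- (0.0109) and -1.12 for the double mutants (8.59e-04). Without wild-type replicate 2, the log2 difference of Syt1 in Clrn1-/- mice was 0.0035 (edgeR adjusted p = 0.995). Syt1 passed the test in every mutant also when no filter on low counts was applied. Wild-type replicate 3 was also the lowest wild-type library in 7 summed stria vascularis markers, at 647 CPM against 795 and 861. The stria vascularis is a tissue removed at dissection. The part of this tissue in the level of Syt1 was not tested.

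SNAP-25 and VAMP1 (synaptobrevin 1) are the SNAREs of the plasma membrane and of the vesicle. Snap25 (chr2:136713453-136782428, plus strand) stood at 2528, 2537 and 2801 CPM in wild-type and at 2306, 2293 and 2368 in Clrn1-/- mice. It stood at 2380, 2294 and 2185 CPM in Clrn2-/- mice and at 1576, 1571 and 1611 in the double mutants. The single mutants overlapped with each other below wild-type, and the double mutants were far lower. Snap25 fell by 0.73 ± 0.056 on the log2 scale in the double mutants, to 0.605 times the wild-type level (edgeR adjusted p = 7.39e-08). The falls in Clrn1-/- (0.18 ± 0.055, edgeR adjusted p = 0.0279) and Clrn2-/- mice (0.20 ± 0.055, edgeR adjusted p = 0.0253) were near the threshold. That in Clrn1-/- mice did not pass without Clrn1-/- replicate 1 or 2 or wild-type replicate 3 (edgeR adjusted p from 0.0838 to 0.0999), nor with library size alone as the scaling (-0.13, 0.051). That in Clrn2-/- mice did not pass without Clrn2-/- replicate 2 or 3 or wild-type replicate 3 (edgeR adjusted p from 0.0665 to 0.0886), nor in a fit of only these 2 genotypes (0.14).

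Vamp1 (chr6:125215551-125245964, plus strand) stood at 1354, 1362 and 1504 CPM in wild-type and 1356, 1336 and 1346 in Clrn1-/- mice. In Clrn2-/- mice it stood at 1472, 1272 and 1195 CPM, and in the double mutants at 969, 1005 and 1031. Only the double mutants were apart from wild-type, with a fall of 0.49 ± 0.068 (edgeR adjusted p = 3.26e-05). Vamp2, the vesicle SNARE of most brain synapses, passed the test barely (0.12 ± 0.045, edgeR adjusted p = 0.0488), and did not pass by DESeq2 (0.0534) or without any 1 of the libraries but Clrn2-/- replicate 1 (0.0511 to 0.295). Vamp3, a more widely expressed form, rose by 0.16 ± 0.049 (edgeR adjusted p = 0.0169), which did not pass without wild-type replicate 3 or double-mutant replicate 1 or 2 (0.0696 to 0.0886). Neither gene fell. The share of Vamp1 in the FPKM of the 3 genes was 68.8% ± 2.22 in wild-type and 58.9% ± 0.927 in the double mutants, whose libraries did not overlap. Snap23, the widely expressed relative of Snap25, rose by 0.39 ± 0.084 in the double mutants (edgeR adjusted p = 0.00158) but stayed at 2.30% ± 0.128 of the FPKM of that pair.

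Complexin-1 binds the assembled SNARE complex. Cplx1 (chr5:108518554-108550024, minus strand) stood at 1748, 1750 and 1876 CPM in wild-type and 1485, 1517 and 1536 in Clrn1-/- mice. It stood at 1682, 1458 and 1395 CPM in Clrn2-/- mice and at 1204, 1211 and 1247 in the double mutants. Every mutant library was below every wild-type library, and the double mutants were lowest. Cplx1 fell by 0.24 ± 0.063 in Clrn1-/- mice (edgeR adjusted p = 0.00902), by 0.25 ± 0.063 in Clrn2-/- mice (edgeR adjusted p = 0.0159) and by 0.55 ± 0.063 in the double mutants (edgeR adjusted p = 4.35e-06). The fall in Clrn2-/- mice did not pass without Clrn2-/- replicate 2 or 3 (edgeR adjusted p = 0.0708 and 0.0691), nor in a fit of only these 2 genotypes (0.0953). Cplx2, its relative, was over-expressed in Clrn1-/- mice (log2 fold change 0.82 ± 0.079, edgeR adjusted p = 1.98e-06), yet held only 0.897% ± 0.0656 of the FPKM of the pair.

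Synapsins bind vesicles to one another and to the cytoskeleton. Syn1 (chrX:20860511-20921004, minus strand) stood at 281, 276 and 288 CPM in wild-type and 255, 280 and 267 in Clrn1-/- mice. Its level was 290, 245 and 234 CPM in Clrn2-/- mice, against 209, 210 and 218 in the double mutants. Syn2 (chr6:115134902-115282006, plus strand) stood at 67.8, 72.3 and 78.2 CPM in wild-type and 70.4, 72.3 and 69.2 in Clrn1-/- mice. Its level was 80.7, 72.1 and 69.4 CPM in Clrn2-/- mice, against 63.1, 58.2 and 62.7 in the double mutants. For both genes the single mutants overlapped with wild-type and only the double mutants were apart. In them Syn1 fell by 0.41 ± 0.063 (edgeR adjusted p = 9.37e-05) and Syn2 by 0.25 ± 0.061 (edgeR adjusted p = 0.00436), the smallest change of the 9. Syn3 was rare, at 0.593% ± 0.0446 of the synapsin FPKM in wild-type, and its log2 fold change in the double mutants was 0.10 (edgeR adjusted p = 0.598). Timp4 lies on the opposite strand within Syn2 and shares 90 exonic bases with it, and without the strand 6.65 to 9.09% of the counts of Syn2 were lost.

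In Clrn2-/- mice replicate 1 was the highest of the 3 libraries for 9 of the 10 genes, all but Syt1. Without it, Syt2, Vamp1 and Syn1 also fell in Clrn2-/- mice (log2 fold changes -0.17, -0.18 and -0.23, edgeR adjusted p = 0.0347, 0.0304 and 0.00316), so that 7 genes did. Its summed level of 20 neuron markers was 15106 CPM, against 13685 and 13307 in the other 2 libraries. The part of this difference in the levels of the genes was not tested.

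**Figure D3:**
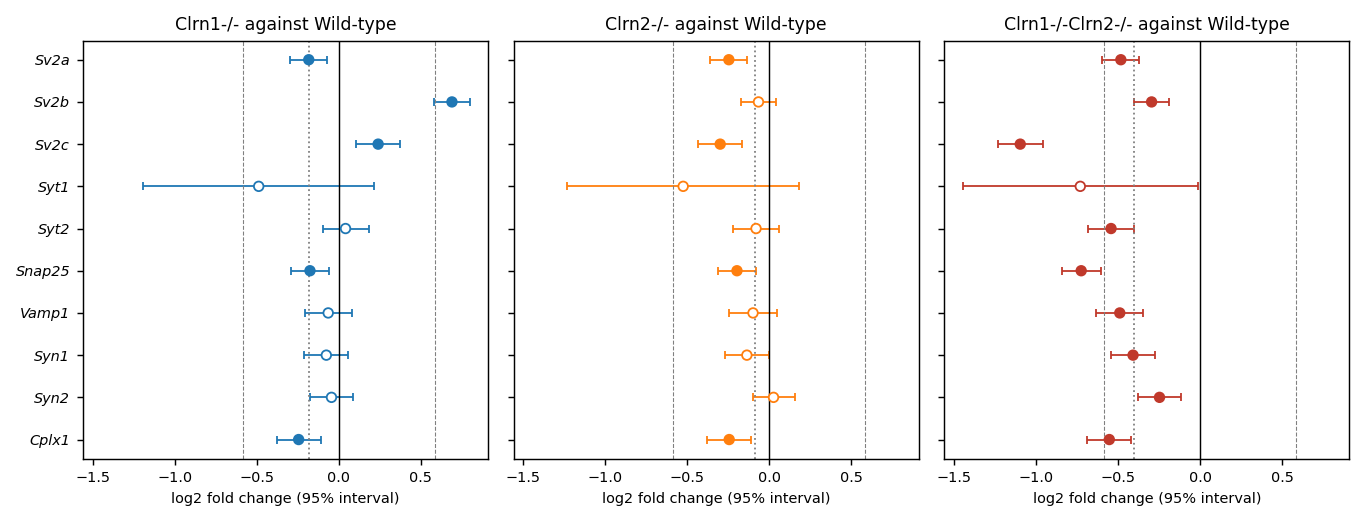
Log2 fold change of each gene against wild-type (horizontal axis, with 95% intervals) in the 3 mutants, filled where the adjusted p is at most 0.05. Dashed lines mark a 1.5-fold change and the dotted line the median of 20 neuron markers (-0.18, -0.09 and -0.41), and Sv2b in Clrn1-/- mice (0.69) and Sv2c in the double mutants (-1.10) are farthest from it.

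The double mutants were also compared with each single mutant. Relative to Clrn1-/- mice, 9 of the 10 genes fell and none rose, where 14.6% and 15.7% of all genes did so. Sv2b and Sv2c were under-expressed and no gene over-expressed, against 2.61% and 4.62% of all genes. Sv2c differed by -1.34 ± 0.064 on the log2 scale (edgeR adjusted p = 1.47e-09) and Sv2b by -0.99 ± 0.051 (edgeR adjusted p = 3.14e-09). The other changes ran from -0.20 for Syn2 to -0.58 for Syt2. That of Syn2 (edgeR adjusted p = 0.0184) did not pass without Clrn1-/- replicate 2 or double-mutant replicate 2 (edgeR adjusted p = 0.0516 and 0.0714). Relative to Clrn2-/- mice the 9 genes also fell and none rose, where 13.2% and 14.4% of all genes did so. Sv2c was under-expressed and no gene over-expressed, against 1.43% and 3.67% of all genes. The other 8 changes lay between -0.23 for Sv2b and -0.53 for Snap25. In both comparisons the libraries of the double mutants were below those of the single mutant for the 9 genes, which held for 22.3% of all genes against Clrn1-/- and for 20.8% against Clrn2-/- mice. For none of the 10 were they above, as they were for 23.6% and 21.6% of all genes.

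Between the single mutants only Sv2b and Sv2c differed. Sv2b was 1.69-fold higher in Clrn1-/- than in Clrn2-/- mice (log2 fold change 0.76 ± 0.051, edgeR adjusted p = 5.32e-08) and Sv2c 1.45-fold higher (0.54 ± 0.063, edgeR adjusted p = 2.30e-05), among 9.51% of all genes that were higher and 8.99% that were lower. With the fold minimum Sv2b alone was called, against 2.4% of all genes higher and 2.34% lower. Libraries did not overlap for Sv2b and Sv2c, both above, against 17.3% of all genes above and 17.3% below. For Snap25, Vamp1 and Cplx1 the 95% intervals of the difference were -0.095 to 0.14, -0.11 to 0.18 and -0.13 to 0.13. Without Clrn2-/- replicate 1, Syt2 and Syn1 were higher in Clrn1-/- mice as well (0.21 and 0.15, edgeR adjusted p = 0.0108 and 0.0335).

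Whether losing both clarins differed from the sum of losing each was tested as the interaction between both genotypes. It is the log2 fold change of the double mutants minus those of both single mutants. Of the 10 genes, 5 had an interaction below 0 that passed the test, as did 8.06% of all genes, and none had one above 0, as did 9.32%. They were Sv2c (-1.04 ± 0.089, edgeR adjusted p = 2.75e-06), Sv2b (-0.92 ± 0.072, edgeR adjusted p = 1.04e-06), Syt2 (-0.50 ± 0.094, edgeR adjusted p = 0.00171), Snap25 (-0.35 ± 0.078, edgeR adjusted p = 0.00563) and Vamp1 (-0.33 ± 0.096, edgeR adjusted p = 0.0277). That of Vamp1 was lost without replicate 1 of wild-type or of the double mutants. With the fold minimum there were 2 below 0, Sv2b and Sv2c, and none above, against 1.92% and 3.58% of all genes. For Sv2a and Cplx1, whose falls in the single mutants nearly added up to that of the double mutants, it was -0.05 (95% interval -0.21 to 0.11) and -0.06 (95% interval -0.25 to 0.12). For Syn1 and Syn2 the values were -0.20 and -0.23 (edgeR adjusted p = 0.151 and 0.0803). Both passed without Clrn2-/- replicate 3 (0.0273 and 0.0266) and with no filter on low counts (0.0413 and 0.0271). That of Syn2 also passed without wild-type replicate 3 (0.0176) and with library size alone (0.0294).

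Levels of different genes were compared per length only. By FPKM in wild-type, Cplx1 was highest at 818 ± 33.5, followed by Snap25 at 386 ± 22.9 and Vamp1 at 138 ± 8.30. Syn1 (85.4 ± 1.71), Syt2 (78.4 ± 3.63) and Sv2a (70.2 ± 3.30) formed a middle group with no overlap between neighbouring genes' libraries. Sv2c (23.1 ± 1.58), Sv2b (15.3 ± 0.781), Syn2 (10.4 ± 0.740) and Syt1 (1.66 ± 0.968) were lowest, also without overlap.

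Markers of neurons moved with these genes. The summed level of 20 general neuron genes outside the vesicle cycle, such as Tubb3 and Nefl, was 14943 to 16409 CPM in wild-type, 13199 to 14053 in Clrn1-/- mice, 13307 to 15106 in Clrn2-/- mice and 10728 to 10948 in the double mutants. In the double mutants 14 of the 20 fell and 2 rose, with a median log2 fold change of -0.41. In Clrn1-/- mice 9 fell and 2 rose (median -0.18), and in Clrn2-/- mice 5 fell and 2 rose (median -0.09). In these bulk samples fewer neurons or fibres and less RNA in each cannot be told apart. Of 10 spiral ganglion markers 5 fell and 2 rose in the double mutants. Their summed level was 4002 to 4607 CPM in wild-type and 2750 to 2948 in the double mutants. Calb2 (2806 ± 224 CPM in wild-type and 1692 ± 99.5 in the double mutants) and Lypd1 (802 ± 84.8 and 573 ± 31.9) made up most of this sum. The fall of the sum therefore does not describe all of the markers. Gata3 was at 89.7 to 102 CPM in wild-type and 144 to 155 in the double mutants. Pou4f1 was at 37.9 to 42.2 and 36.5 to 38.6 CPM, with overlap. Of 6 markers of cholinergic efferent neurons, Chat, the defining enzyme, was at or near 0 in all libraries. Of the 4 that were tested, Ache, which encodes the enzyme that breaks down acetylcholine, and Isl1 fell in the double mutants (log2 fold changes -1.15 and -0.36) and none rose. The summed level of the 6 was 297 to 350 CPM in wild-type and 205 to 215 in the double mutants. Nearly all of it was Isl1 (203 ± 25.1 CPM in wild-type and 158 ± 7.50 in the double mutants) and Ache (116 ± 3.15 and 52.3 ± 1.94). Slc5a7, Slc18a3 and Calca stood at no more than 1.14 CPM in any library, so that the sum rests on Isl1 and Ache alone. Its part in the levels of the vesicle genes was not tested.

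Other cell types were measured as well. Summed hair cell markers (12 genes) were at 513 to 587 CPM in wild-type and 658 to 692 in the double mutants, and supporting cell markers (10 genes) at 2494 to 2732 and 5325 to 5802. Of these 10, 9 rose (median log2 change 0.39). Much of the sum was Ceacam16, a component of the tectorial membrane, at 1348 ± 112 CPM in wild-type and 3962 ± 221 in the double mutants. The other 9 summed to 1227 to 1275 CPM in wild-type and 1607 to 1655 in the double mutants. Markers of myelinating glia (8 genes) were at 21670 to 22919 and 20745 to 22179 CPM, so that these genotypes overlapped. Markers of the stria vascularis (7 genes) were at 647 to 861 CPM in wild-type and 667 to 743 in the double mutants, with overlap. Of these 7, 2 fell in the double mutants, both under-expressed, and none rose (median log2 change -0.61). The 7 skeletal muscle markers summed to 1.86 to 3.06 CPM in all libraries. The part of the cell make-up in the changes of the 10 genes was not tested beyond the following ratio.

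Counts of each gene were divided by the summed counts of the 20 neuron markers in the same library, and the log2 of this ratio was compared between genotypes. Most of this sum was Nefh, Ndrg4, Nefl and Nefm. In wild-type they stood at 2889, 2492, 2490 and 2472 CPM on average, of 15557 for all 20. In the double mutants they stood at 1880, 1625, 1618 and 1685 CPM, of 10810. In the double mutants the ratio of Sv2c was 9.52, 9.28 and 10.3 per 1000 marker counts, against 14.3, 14.3 and 14.7 in wild-type, a log2 difference of -0.57. That of Snap25 was 147, 146 and 147, against 169, 166 and 171, a log2 difference of -0.20. Both were below wild-type in every library. The ratio of Cplx1 also lay below in every library, but by only 0.03 on the log2 scale, while those of Sv2b (0.23), Syn1 (0.12) and Syn2 (0.28) lay above. For Sv2a, Syt1, Syt2 and Vamp1 the libraries overlapped, with log2 differences of 0.04, -0.01, -0.02 and 0.04. Among all genes tested, 75.2% had a ratio above wild-type in every double-mutant library and 2.2% one below, against 3 and 3 of the 10 genes. With the median log2 CPM of the markers as the reference, Syn2 alone lay above and 5 genes lay below, namely Sv2c, Snap25, Cplx1, Syt2 and Vamp1.

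In Clrn1-/- mice the ratio to the neuron markers lay above wild-type in every library for 6 genes and below for 1, where 44.7% and 6.72% of all genes did so. The differences above were 0.87 for Sv2b, 0.42 for Sv2c, 0.22 for Syt2, 0.14 for Syn2, 0.12 for Vamp1 and 0.10 for Syn1 on the log2 scale. That of Cplx1 was -0.06. In Clrn2-/- mice Syn2 lay above (0.17) and Sv2c (-0.15), Cplx1 (-0.10) and Sv2a (-0.10) below, where 31.7% and 4.47% of all genes did so.

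**Figure D4:**
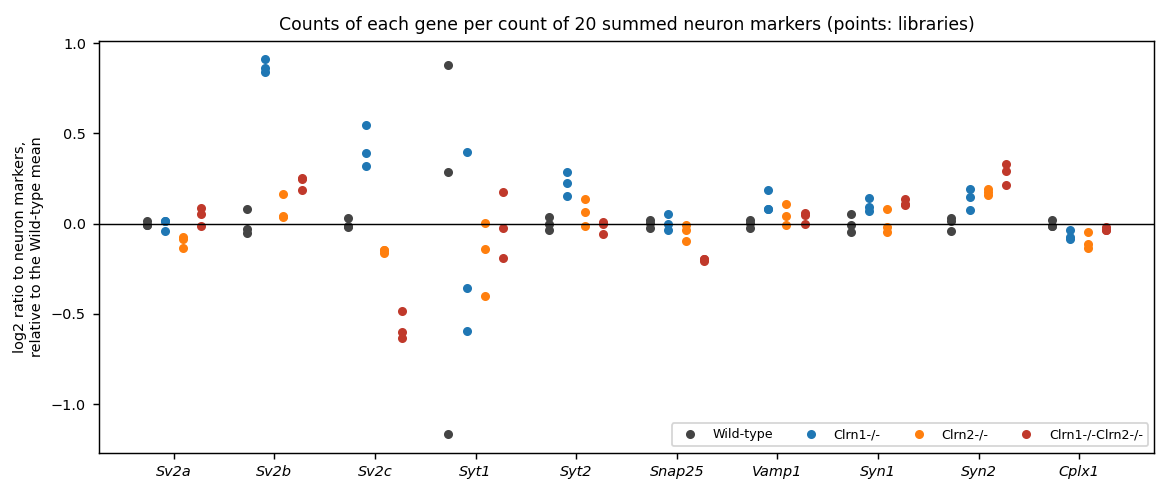
Log2 ratio of each gene's counts to the summed counts of 20 neuron markers (vertical axis, relative to the wild-type mean), with a point for each library, by gene and genotype. Sv2b in Clrn1-/- mice (0.87 on average) and Sv2c in the double mutants (-0.57) are farthest from wild-type, while the wild-type libraries of Syt1 are spread widely.

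A wider list of 95 other genes of the vesicle cycle placed these changes among their partners. Vamp7 was not analysed here, and 87 of the genes passed the filter on low counts. In the double mutants 44 of the 87 fell and 16 rose, 9 were under-expressed and 3 over-expressed, and the median log2 fold change was -0.21. In Clrn1-/- mice 19 fell and 11 rose, and in Clrn2-/- mice 20 fell and 3 rose. The shares of all genes that rose or fell in these comparisons are given above.

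Among genes of the vesicle membrane and its filling, 7 of 11 tested fell in the double mutants and 1 rose. The neuronal vesicular glutamate transporters were under-expressed, Slc17a6 by 0.87 ± 0.046 on the log2 scale below wild-type (edgeR adjusted p = 1.28e-09) and Slc17a7 by 0.65 ± 0.066 (edgeR adjusted p = 1.54e-06). Syp, which encodes synaptophysin of the vesicle membrane, fell by 0.50 ± 0.062 (edgeR adjusted p = 1.12e-05). Slc17a8, the transporter of the inner hair cell, differed by 0.12 in the double mutants (edgeR adjusted p = 0.336) but was under-expressed in Clrn1-/- mice (-0.89 ± 0.093, edgeR adjusted p = 4.74e-06). It stood at 27.3, 27.9 and 32.7 CPM in wild-type and at 15.3, 15.0 and 17.0 in Clrn1-/- mice, without overlap.

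Of the other calcium sensors, 7 of 14 fell and 1 rose in the double mutants. Syt7, a slow sensor, was under-expressed (-0.59 ± 0.067, edgeR adjusted p = 5.03e-06), at the very limit of 1.5-fold, which it missed without wild-type replicate 3, Clrn2-/- replicate 1 or double-mutant replicate 1 and by limma-voom. Doc2b, a sensor of spontaneous release at 1.04 to 1.80 CPM on average, was under-expressed too (-0.79 ± 0.23, edgeR adjusted p = 0.0116), though not without wild-type replicate 2 or double-mutant replicate 2 (0.056 and 0.0588). Syt10 was over-expressed (1.05 ± 0.36, edgeR adjusted p = 0.0297) at no more than 1.01 CPM in any library, and did not pass without wild-type replicate 1 or 3 or double-mutant replicate 2 or 3 (0.0883 to 0.124). Otof, which encodes otoferlin, differed by 0.12 (edgeR adjusted p = 0.385).

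Among the SNAREs, 2 of 12 fell and 5 rose in the double mutants, the only role with more genes rising than falling. Stx1a, a syntaxin of the plasma membrane, was at 4.29 to 5.80 CPM in all libraries and differed by 0.03 (edgeR adjusted p = 0.882).

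SNARE regulators and priming factors gave 9 falls and 6 rises among 19 genes in the double mutants. Unc13a, a priming factor, stood at 66.8, 68.0 and 68.0 CPM in wild-type and at 40.7, 38.4 and 40.6 in the double mutants, a change of -0.76 ± 0.049 (edgeR adjusted p = 1.05e-08). Sncb (beta-synuclein, -0.72 ± 0.059) was under-expressed as well, while Cadps2, a factor of dense-core vesicle priming, was over-expressed (0.67 ± 0.11).

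Of 19 genes of the active zone and of tethering, 10 fell and 3 rose in the double mutants. Rims1, a scaffold of the release site, was under-expressed (-0.62 ± 0.061, edgeR adjusted p = 1.07e-06) and Rab27b, a small GTPase of secretory organelles, over-expressed (0.97 ± 0.089, edgeR adjusted p = 4.78e-07). Rims3, a scaffold of the same family, was over-expressed in Clrn1-/- mice (0.61 ± 0.059, edgeR adjusted p = 2.06e-06) and Rab3b, a GTPase of the vesicle, at 0.868 ± 0.102 CPM, under-expressed (-0.82 ± 0.24, edgeR adjusted p = 0.019), the latter change not passing without Clrn1-/- replicate 2 or wild-type replicate 2 (0.0816 and 0.0921). Genes of vesicle recycling gave 9 falls and no rise among 12, with a median of -0.43. Sh3gl2 (endophilin A1) was the only one under-expressed (-0.61 ± 0.043, edgeR adjusted p = 3.14e-08).

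**Figure D5:**
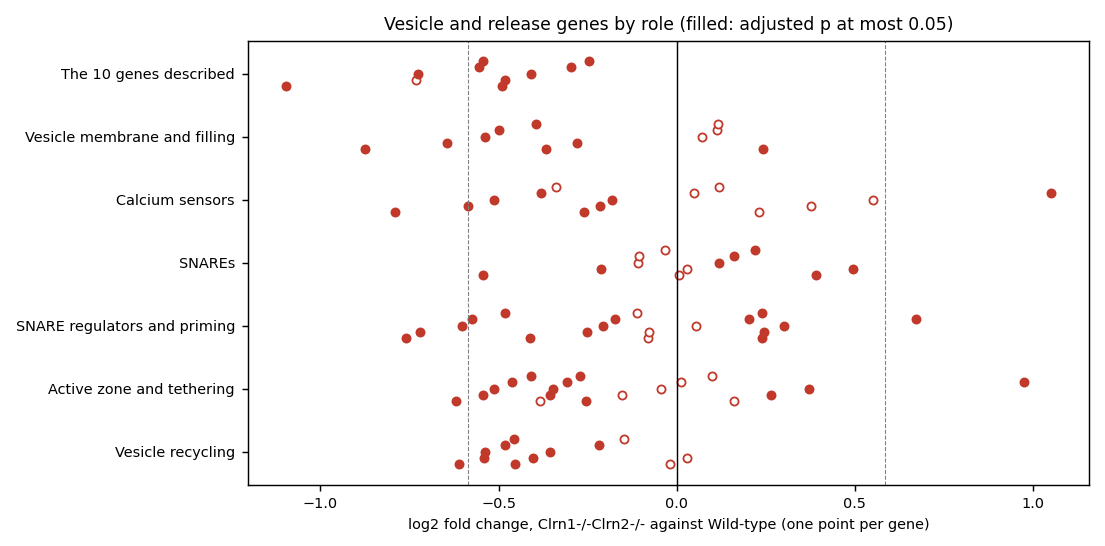
Log2 fold change in the double mutants against wild-type (horizontal axis) for the 10 genes and for the 87 tested genes of the wider list by role, with a point for each gene, filled where the adjusted p is at most 0.05, and dashed lines at a 1.5-fold change. All 10 genes lie left of 0, whereas the SNAREs of the wider list have a median of 0.017.

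For each gene called in a mutant, the genes most like it in pattern over the 12 libraries were found by the root mean square difference of log2 CPM, centred per gene, among 12452 genes of at least 5 CPM. For Snap25 they were Diras1 (0.047), Sema7a (0.048) and Pygl (0.053). Diras1 was at 276 ± 10.8 CPM in wild-type and 172 ± 1.23 in the double mutants. For Sv2b they were Gm42732 (0.11), Calr3 (0.11) and Rassf4 (0.11), the last at 102 ± 7.35 CPM in wild-type and 142 ± 9.98 in Clrn1-/- mice. For Sv2c the nearest were Ank2 (0.15), Clgn (0.17) and Hapln4 (0.21), which were less close than those of Snap25. Ank2, which encodes the membrane adaptor ankyrin-B, stood at 1082 ± 8.99 CPM in wild-type, 1449 ± 120 in Clrn1-/- mice, 886 ± 69.2 in Clrn2-/- mice and 638 ± 17.1 in the double mutants, the same order of genotypes as Sv2c.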

How the data were processed

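Organs of Corti of 4 genotypes at P21 were sequenced as polyadenylated RNA in strand-specific libraries, 3 per genotype, with paired reads of 100 bases. The authors deposited raw counts per gene and library made with STAR on GRCm38.p6, per the labels, and the paper names the Gencode M24 annotation. No normalization or filter had been applied to the counts, and whether animals were pooled is not given. The column of the library's own strand was used. Totals of reads without a gene, 13.5% to 15.8% of each library, were left out, and counts on genes ran from 30008679 to 41049302 per library. Intervals cover the spread between libraries, and the common coefficient of variation was 6.15%.

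Genes were kept by filterByExpr (minimum count 10), scaled by TMM (factors 0.963 to 1.02) and fitted in edgeR 4.0.16 under R 4.3.3, all 12 libraries together with genotype alone, by the quasi-likelihood test with Benjamini-Hochberg adjustment. The script was tested on simulated data. FPKM were computed here from CPM and merged exon lengths of Gencode M21, an earlier release on the same build, which also gave coordinates. Promoters came from RefSeq. The 10 genes, the wider list and the marker lists were chosen with earlier results of these data known. Named from the wider list were the genes called with the fold minimum against wild-type, up to 3 per direction, role and mutant, and 12 relatives or partners named in any case, among them Vamp2, Stx1a, Syp and Otof. Some genes that this rule names are not reported here. Alternatives were limma-voom (limma 3.58.1), DESeq2 1.42.0, library size alone, no filter, a fit of only the 2 genotypes compared, a replicate block, unstranded counts, and each library left out.

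The genotypes share replicate numbers, whose meaning the labels do not give. Deviations from group means of same-numbered libraries, over 12453 genes, correlated above 0.1 in all pairs for wild-type with Clrn1-/- only (0.261, 0.124 and 0.104). In the other comparisons the correlations ran from -0.276 to 0.299. Libraries with different numbers were not correlated, so these values cannot show whether the numbers mark pairs. Libraries of a genotype differed by 4.14 to 17.4 times the counting variance per gene, and none was counted as a repeat of another. Protein and imaging data were not analysed here.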

Additional observations from a re-analysis of the deposited data

Results flagged for a closer look

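The effect of losing Clrn1 differed between mice with intact Clrn2 and mice with the clarinet allele for 5 of the 10 genes, by a test of the interaction in edgeR's fit. The interaction was -1.04 on the log2 scale for Sv2c (edgeR adjusted p = 2.75e-06) and -0.92 for Sv2b (edgeR adjusted p = 1.04e-06). For both, Clrn1 loss alone went with a rise, and with a fall where Clrn2 was also mutated. It was -0.50 for Syt2 (edgeR adjusted p = 0.00171), -0.35 for Snap25 (edgeR adjusted p = 0.00563) and -0.33 for Vamp1 (edgeR adjusted p = 0.0277). That of Vamp1 did not pass the test without wild-type replicate 1 (edgeR adjusted p = 0.0568) or double-mutant replicate 1 (0.0539). Neuron markers were also lower in the double mutants, and their part in these values was not tested.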

How the results depend on the processing

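Under limma-voom, DESeq2, library size alone, no filter, the replicate block and unstranded counts, every count of members that rose, fell or were called stayed within 1.5 times its value in all 7 comparisons. The blocked fit changed no call of a member, while Vamp2 in the double mutants no longer passed (adjusted p = 0.0643), and, in the wider list, moved 1 count, genes over-expressed in the double mutants relative to Clrn2-/- mice, from 2 to 1. With the 2 genotypes alone, 2 members instead of 4 fell in Clrn2-/- mice, Snap25 and Cplx1 not passing. With each library left out, members that fell ran from 1 to 3 in Clrn1-/- and from 2 to 7 in Clrn2-/- mice, those under-expressed from 0 to 1 in both. Between the single mutants, members higher in Clrn1-/- mice ran from 2 to 4 and those called from 1 to 2. Relative to the neuron markers by their median, 1 member lay above and 5 below wild-type in the double mutants. Without the filter, Syt1 passed the test in every mutant.

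In the wider list, over-expressed genes in Clrn1-/- relative to Clrn2-/- mice numbered 2 without the filter or with the 2 genotypes alone, and over-expressed genes in the double mutants relative to Clrn2-/- mice 1 by DESeq2. Without the filter, 5 genes were under-expressed in Clrn1-/- mice, 1 in Clrn2-/- mice and 3 in the double mutants relative to Clrn1-/- mice, where DESeq2 gave 2. By library size alone, 5 were under-expressed in the double mutants, and Syt7, Rims1 and Sh3gl2 were among those that fell short of 1.5-fold (-0.54, -0.58 and -0.57). So did Cadps2 without wild-type replicate 3, and Rims3 without wild-type replicate 1 or Clrn1-/- replicate 3. With each library left out, over-expressed genes ran from 1 to 4 in Clrn1-/- mice, 1 to 4 in the double mutants and 0 to 2 in the double mutants relative to Clrn2-/- mice. Under-expressed ones ran from 2 to 5 in Clrn1-/- mice and 1 to 3 in the double mutants relative to Clrn1-/- mice.

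Signs turned only for differences that did not pass the test. Cplx1 between the single mutants was -0.0045 without the filter, -4.3e-04 with the 2 genotypes alone and -0.0027 with unstranded counts, and ran from -0.057 to 0.074 with each library left out. Syn2 in Clrn1-/- mice was 9.9e-04 by library size alone, and Syt1 between the single mutants -0.021 by limma-voom. With each library left out, the interaction of Cplx1 ran from -0.14 to 0.018, that of Syt1 from -0.22 to 0.65, and Stx1a in the double mutants from -0.060 to 0.079. Differences between the single mutants ran from -0.012 to 0.042 for Snap25, -0.0034 to 0.15 for Syn1, -0.030 to 0.12 for Vamp1 and -0.35 to 0.23 for Syt1. Syn2 ran from -0.088 to 0.0098 in Clrn1-/- and from -0.035 to 0.081 in Clrn2-/- mice. Syt1 ran from -0.87 to 0.0035 in Clrn1-/- mice and from -0.44 to 0.13 in the double mutants relative to Clrn1-/- mice. The causes were not tested. Syt1 had the fewest counts of the members, 224 to 796 per library, and the widest spread between wild-type libraries (SD 58.2% of the mean).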
